A study of Mus musculus with 19 samples.

Results

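The 2 shRNAs against the long noncoding RNA Spehd, shRNA 10 (sh10) and shRNA 20 (sh20), were compared with each other in LSK cells, the lineage-negative, Sca1-positive, cKit-positive cells of bone marrow that hold the HSCs and the multipotent progenitors. The members are the 3 LSK libraries labelled with sh20 and the 3 labelled with sh10, 6 of the 19 libraries of the series, and every gene counted in them entered. All of them come from C57BL/6 HSCs that were transduced with a lentivirus carrying a doxycycline-inducible zsGreen and shRNA cassette and transplanted. The recipients were cKit(w41);CD45.1 mice that had received sublethal irradiation. After 10 weeks of reconstitution, the animals ate doxycycline food for 6 days and zsGreen+ cells were sorted. The control group is 4 LSK libraries of the same construction whose shRNA targets the Renilla luciferase, which mouse cells lack, and these share the vector, the transplant and the doxycycline with both Spehd groups. By the study's methods the recipients of such transplants were young adults of both sexes. The labels do not say whether each library is a separate animal, so p-values measure the spread between these libraries.

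An shRNA of this design is processed into a guide of 22 bases, which leads Argonaute proteins to transcripts that pair with it. A transcript that pairs along the whole guide is cut, and others that pair only with the seed, bases 2 to 8, can be repressed as by a microRNA. A pair of guides against one transcript therefore shares a target and differs in seed. Each shRNA also came in its own virus, transduced into its own HSCs and grown in its own recipients. Effects of these cannot be told apart from those of the guide. The guides are shown because the groups are labelled by them, with the seed in capitals.
sh10: tACAAAGTcagcttttcctctc
sh20: tATGCTATgacaacccagggca
The sequences were read from the hairpin oligos of the study, in which 21 of the 22 bases of the arms pair. No gene counted was named Spehd, and none of 141767 transcripts of the annotation (GENCODE vM21) held the whole target of either guide, so the knockdown itself could not be read from these counts. Spehd lies between Rpn1, which encodes a subunit of the oligosaccharyltransferase, and Gata2, which encodes a transcription factor needed by HSCs. Gata2 (mm10 chr6:88193891-88207032) had 425, 591 and 498 CPM (the count relative to the total of the library, scaled by TMM) in sh20 libraries A, B and C and 423, 478 and 401 CPM in sh10 libraries A, B and C. Rpn1 (chr6:88084482-88105304) had 377, 400 and 363 CPM with sh20 and 347, 388 and 345 CPM with sh10. The groups overlapped for both genes, and the differences, written throughout as sh20 minus sh10 on the log2 scale, were 0.22 ± 0.12 (SE) for Gata2 and 0.08 ± 0.09 for Rpn1. Gm38708, a lincRNA annotated between them (chr6:88188397-88190681), had 0, 11 and 22 counts with sh20, 11, 3 and 2 counts with sh10 and 2 to 8 counts with Renilla, too few to be tested.

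The 6 libraries held from 4649170 to 5617906 counts on genes and the 4 Renilla libraries from 3647318 to 4967015 counts, and the sh20 and sh10 libraries overlapped in depth. The transcripts of the sorted population were there: Kit, the receptor the gate selects, had 741, 736 and 749 CPM with sh20 and 742, 413 and 807 CPM with sh10. Ly6a, which encodes Sca1, had 56.3 to 80.2 CPM with sh20 and 50.9 to 85.5 CPM with sh10, and Cd34, a surface protein of progenitors, 426 to 457 CPM and 446 to 489 CPM. None of the 8 genes of the gate reached an unadjusted p under 0.05, with Fcgr3, the Fc receptor of myeloid progenitors, at 0.47 ± 0.32. Libraries within a group were not equally close. Across genes, the log2 CPM of sh10 libraries A and C correlated at r = 0.977, sh10 library B with either at 0.901 and 0.910, the sh20 libraries with each other at 0.894 to 0.907 and the Renilla libraries with each other at 0.955 to 0.961; these are descriptions over genes, which are not replicates. A gene stood at least 2 log2 units below its median in the other 9 LSK libraries for 647, 341 and 472 genes in sh20 libraries A, B and C, for 39, 504 and 15 genes in sh10 libraries A, B and C, and for 68 to 135 genes in a Renilla library. Given a weight per library, limma voom gave the least weight to sh10 library B, 0.135, and next to sh20 library A, 0.467. Results are therefore given also without both of these, a choice made after the libraries had been seen. In that setting, of the genes of the gate, edgeR called 1 lower, and DESeq2 1 higher and 1 lower. Over all genes, edgeR there called 19 higher and 40 lower of 14061, and DESeq2 called 1.39% higher and 2.42% lower.

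Fewer genes were seen with sh20. At least 1 count was found for 17587, 17664 and 17817 genes in sh20 libraries A, B and C (17689 ± 117, SD, n = 3) and for 20142, 20678 and 20524 genes in sh10 libraries A, B and C (20448 ± 276, n = 3), while Renilla libraries had from 19026 to 20032. The sh20 libraries were the lowest and the sh10 libraries the highest, with no overlap, and Renilla lay between them. The difference of -2759 genes had p = 0.1 in a two-sided exact permutation test, the smallest p that 3 against 3 can give. At the depth of the smallest LSK library, 3647318 counts, the number of genes expected was 17079 ± 172 with sh20, 19321 ± 471 with sh10 and 18964 ± 456 with Renilla. The gap between the shRNAs was thus present at equal depth, with sh20 below every other library, while sh10, from 18941 to 19848, overlapped with Renilla, from 18322 to 19396. Much of it lay in genes with 1 to 4 counts, of which sh20 libraries had 3554 ± 179 and sh10 libraries 5662 ± 345. Genes with at least 5 counts numbered 14135 ± 280 with sh20 and 14786 ± 114 with sh10. The share of uniquely placed reads that fell on genes was 46.7% ± 0.169 with sh20 and 46.1% ± 0.663 with sh10. 

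**Figure D1:**
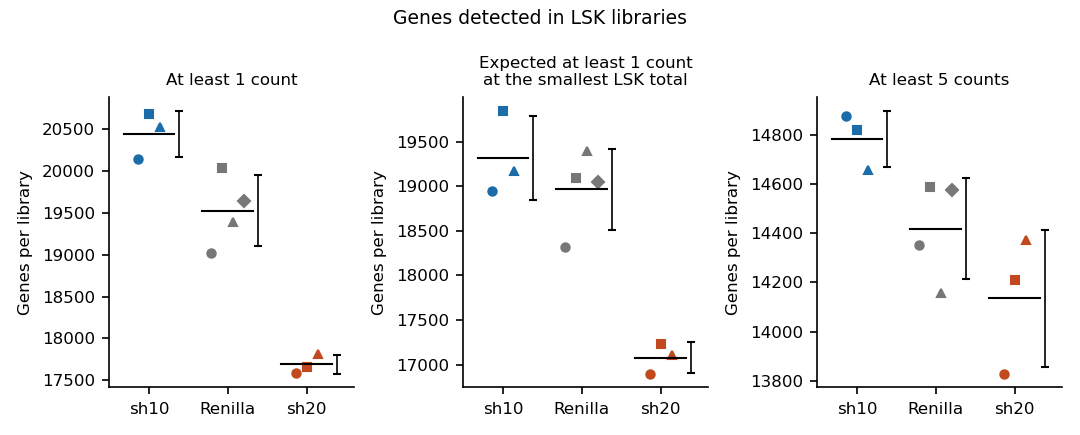
Genes per LSK library (y axis, number of genes) by shRNA, with at least 1 count, expected with at least 1 count at the smallest total, and with at least 5 counts; circles are library A, squares B, triangles C and diamonds D, lines are means and bars SD. The 3 sh20 libraries, at 17587 to 17817 genes with a count, lie below all Renilla libraries and the 3 sh10 libraries, at 20142 to 20678, above them.

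The genes behind this were of many kinds. In all 3 sh10 libraries and in no sh20 library, 401 genes were seen, of which 183 were protein-coding, 70 were unverified transcripts (the TEC class of the annotation), 53 pseudogenes, 28 antisense transcripts and 24 lincRNAs. In all 3 sh20 libraries and in no sh10 library, 21 genes were seen. The 401 were scarce, with a median of 2.67 counts per library in sh10, and 75 of them were also seen in all 4 Renilla libraries and 49 in none. One of them was Mpped2, which encodes a metallophosphodiesterase, with 10, 18 and 8 counts with sh10, none with sh20, and 1.43 to 4.31 CPM in the Renilla libraries. The part that this difference in detection has in the gene results below was not tested.

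With the spread shared by the 3 LSK groups, no single gene passed edgeR's quasi-likelihood test, although genes of stem cells tended to lie higher with sh20 and genes of lymphoid priming lower. Of 13828 genes tested, 0 were higher (0%) and 0 lower (0%) at a Benjamini-Hochberg adjusted p under 0.05, and the smallest adjusted p was 0.0733. At an unadjusted p under 0.05, 527 genes were higher with sh20 (3.81%) and 741 lower (5.36%). DESeq2, the tool named by the study, called 105 of 17398 genes higher (0.604%) and 151 lower (0.868%) on the same 10 libraries. The groups did not overlap in CPM for 812 genes that were higher with sh20 (5.87% of those tested) and 917 that were lower (6.63%). Calls are therefore given by tool in what follows, and a gene called only by DESeq2 did not pass the edgeR test. Without sh10 library B and sh20 library A, DESeq2 called 203 genes higher (1.39%) and 352 lower (2.42%), among them 76 of the 105 and 64 of the 151. Of the 105 and the 151, 32 and 29 were called whichever 1 of the 10 libraries was left out.

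The precision behind these calls followed the counts. The biological coefficient of variation common to all genes was 0.300, and the median half-width of the 95% confidence interval of a difference was 0.63 log2 units. It was 1.88 for genes with a mean under 20 counts, 0.679 at 100 to 200 counts and 0.269 at 1000 counts or more. These widths are medians over genes, and single genes had narrower or wider intervals.

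The 12 genes with the smallest p, 6 in each direction among those with a mean count of 50 or more, were examined in full, and all of them were called by DESeq2 in the full set and in each of its 10 fits without 1 library. Myl10, which encodes a regulatory light chain of myosin, had 48.0, 36.0 and 63.7 CPM with sh20 and 15, 12.4 and 8.11 CPM with sh10. The difference was 2.06 ± 0.29 (edgeR adjusted p = 0.0733; DESeq2 5.6e-08). Renilla libraries had 51.0 to 75.3 CPM, so that only the sh10 group stood away from the control. Tnip3, whose product binds A20 and restrains NF-kB signalling, had 108, 103 and 113 CPM with sh20, 52.6, 30.8 and 33.9 CPM with sh10 and 54.5 to 72.1 CPM with Renilla. Its difference was 1.46 ± 0.21, and Renilla lay between the groups. Syn3, which encodes a synapsin, a protein of synaptic vesicles, had 21.9, 21.8 and 21.1 CPM with sh20 and 4.46, 3.0 and 7.0 CPM with sh10, a difference of 2.15 ± 0.33. Ndrg2, of the N-myc downstream-regulated family, had 55.3, 55.9 and 65.2 CPM with sh20 and 21.4, 29.0 and 17.5 CPM with sh10. The difference of Ndrg2 was 1.38 ± 0.22, and its Renilla libraries, at 25.8 to 33.0 CPM, lay nearer to sh10.

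The widest of these differences belonged to a pair of guanylate-binding proteins, interferon-inducible GTPases of cell-autonomous immunity. Gbp4 (chr5:105115767-105139586) had 20.1, 39.7 and 22.3 CPM with sh20, 3.75, 1.0 and 1.29 CPM with sh10 and 6.84 to 20.1 CPM with Renilla. Gbp9 (chr5:105077630-105139539) had 21.3, 17.0 and 24.2 CPM with sh20, 2.86, 0.600 and 1.84 CPM with sh10 and 5.91 to 17.4 CPM with Renilla. The differences were 3.74 ± 0.60 and 3.53 ± 0.55, from 5 to 21 counts per sh10 library for Gbp4 and 3 to 16 for Gbp9. The annotated spans of both genes overlap on the same strand, so reads could be shared or set aside between them, and they cannot be taken as independent.

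Among the genes that were lower with sh20, Cdk6, the kinase that drives the G1 phase and the exit of HSCs from quiescence, had 209, 213 and 197 CPM with sh20, 367, 336 and 372 CPM with sh10 and 262 to 365 CPM with Renilla. With 988 to 2057 counts per library it was the most deeply counted of the 12, and its difference was -0.80 ± 0.13 (edgeR adjusted p = 0.0774; DESeq2 0.000191). Runx2, a Runt-family transcription factor best known in bone, had 57.5, 62.5 and 72.0 CPM with sh20 and 115, 108 and 120 CPM with sh10. Its difference was -0.83 ± 0.16, with Renilla at 79.2 to 102 CPM between the groups. Slc29a3, a nucleoside transporter of lysosomes, had 46.8, 53.7 and 52.8 CPM with sh20 against 102, 101 and 101 CPM with sh10 and differed by -0.99 ± 0.15. Renilla, at 67.2 to 81 CPM, again lay between. Fam117a had 98.1, 130 and 89.8 CPM with sh20 and 194, 258 and 205 CPM with sh10. Paqr5, a membrane progestin receptor, had 25.9, 21.1 and 11.5 CPM with sh20 and 60.5, 71.8 and 51.2 CPM with sh10. The differences of Fam117a and Paqr5 were -1.04 ± 0.16 and -1.65 ± 0.29. The last of the 12, Gm10800, had 12.6 to 14.5 CPM with sh20 and 25.9 to 38.6 CPM with sh10, but it is uncertain, since 25.4% of its stretches of 31 bases are also found in Gm10717 and others in further predicted genes. Gm10717 and Gm10801, named because they share that sequence, differed the same way, by -3.62 ± 0.50 and -2.31 ± 0.34.

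**Figure D2:**
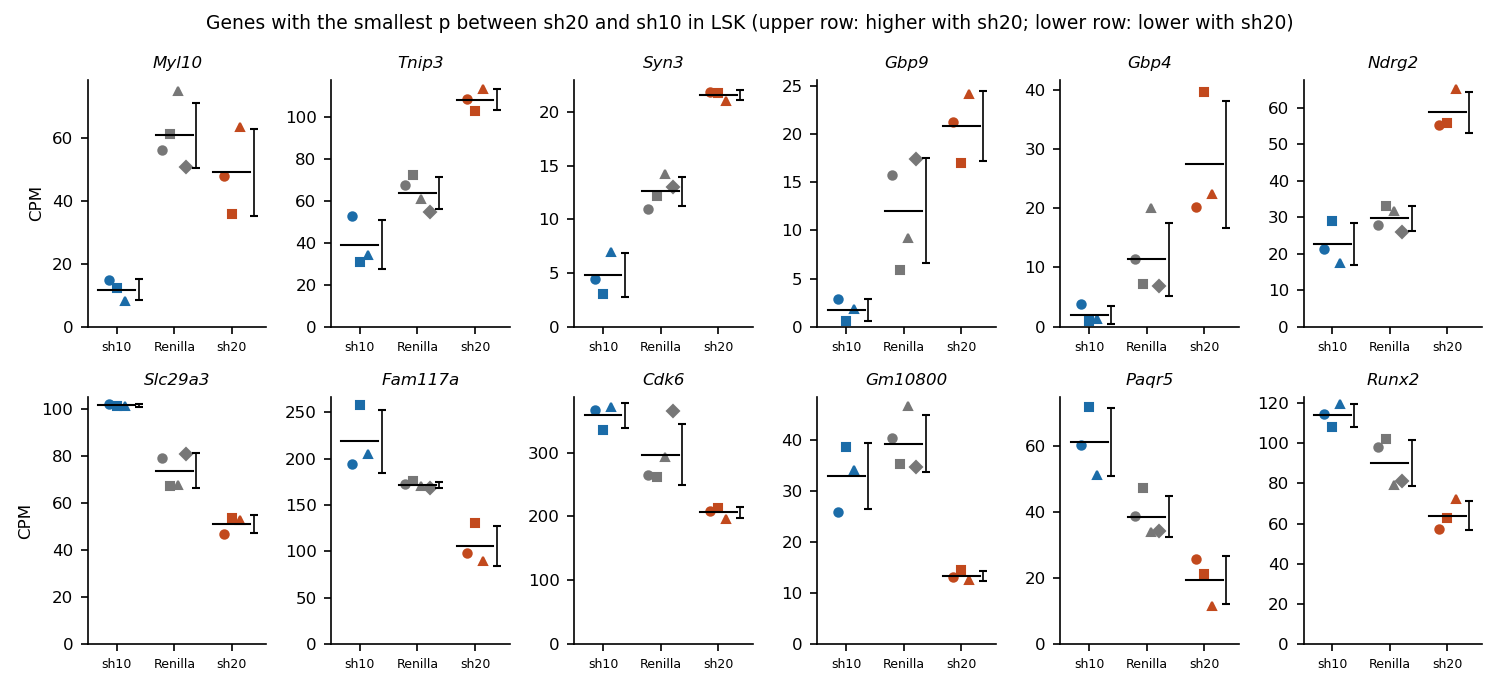
CPM (y axes, from 0) of the 12 genes with the smallest p in each LSK library by shRNA; circles are library A, squares B, triangles C and diamonds D, lines are means and bars SD. The sh20 and sh10 libraries do not overlap for any of the 12, and for most of them Renilla lies between, while for Myl10 Renilla, at 51.0 to 75.3 CPM, lies with sh20.

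Where Renilla stood was described for every called gene. Its mean lay between the sh10 and sh20 means for 93 of the 103 genes that DESeq2 called higher with sh20 and that edgeR had tested, and for 103 of the 137 called lower. For the 103 the median difference from Renilla was 0.83 with sh20 and -0.57 with sh10, and for the 137 it was -1.09 with sh20 and 0.19 with sh10. These genes were chosen for a gap between sh20 and sh10 in the same libraries, which by itself tends to place any other group between them, and the Renilla libraries also entered the fit, so the counts are a description and nothing is read from them.

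Genes of long-term HSCs, a list of 40 that were all tested, lay higher with sh20. Of these, 32 had a positive difference, with a median of 0.36 against 0.00 over all genes, 13 were higher and 1 lower at an unadjusted p under 0.05, DESeq2 called 8 higher and 0 lower, and edgeR called 0. Over all genes 3.81% were higher and 5.36% lower at that p, and DESeq2 called 0.604% and 0.868%. The median stood at -0.25 for sh10 against Renilla and at 0.13 for sh20 against Renilla. Without sh10 library B and sh20 library A the median of the sh20 minus sh10 difference was 0.50, and DESeq2 called 14 higher and 1 lower, against 1.39% and 2.42% of all genes. The summed level was 5144, 6032 and 6242 CPM in sh20 libraries A, B and C, 4922, 4537 and 4785 CPM in the sh10 libraries and 5442 to 6257 CPM in the Renilla libraries, so sh20 and sh10 did not overlap and the sh10 group was the lowest of the 3. In bulk samples, fewer cells of a type and less RNA per cell cannot be told apart.

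Of the HSC list, Mycn, a Myc-family transcription factor active in HSCs, had 235, 379 and 387 CPM with sh20, 174, 143 and 170 CPM with sh10 and 230 to 286 CPM with Renilla. Its difference was 1.04 ± 0.18 (edgeR adjusted p = 0.0806; DESeq2 0.0002). Every sh20 library exceeded every sh10 library, although sh20 library A lay among the Renilla libraries. Fgd5, which encodes a guanine nucleotide exchange factor whose expression marks HSCs, had 45.6, 30.4 and 45.1 CPM with sh20, 15.3, 9.21 and 14.7 CPM with sh10 and 18.5 to 23.5 CPM with Renilla. Its difference was 1.62 ± 0.27 (DESeq2 adjusted p = 7.96e-06), and both genes were called in each of the 10 DESeq2 fits that left out 1 library. The other 6 members called by DESeq2 are named after their values were seen. Slamf1, the CD150 antigen of HSCs, had 27.8, 38.6 and 68.2 CPM with sh20 and 22.1, 11.6 and 20.1 CPM with sh10, and differed by 1.32 ± 0.36. Vwf, the von Willebrand factor that marks platelet-biased HSCs, had 153, 141 and 194 CPM with sh20 and 34.6, 60.8 and 60.8 CPM with sh10, while its Renilla libraries ran from 45.4 to 170 CPM. Mllt3, a regulator of HSC self-renewal, differed by 1.24 ± 0.32 and Gfi1b, a transcriptional repressor of HSCs and of the erythroid and megakaryocytic lineages, by 0.79 ± 0.21. Sult1a1, a sulfotransferase, differed by 1.79 ± 0.47 and Ndn, which encodes necdin, a growth suppressor of quiescent HSCs, by 2.30 ± 0.66. Ndn rested on sh20 library C, with 27.2 CPM against 7.11 and 4.53 CPM in the other sh20 libraries. 

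Of the 40 HSC genes, 8 had a difference below 0, the lowest of them -0.52. Hlf, a transcription factor of HSCs, had 160, 183 and 160 CPM with sh20 and 233, 174 and 259 CPM with sh10, and at -0.41 ± 0.15 it was the 1 member of the list that was lower at an unadjusted p under 0.05. Other genes of HSCs had differences above 0 without a call. Procr, the EPCR antigen by which the donor HSCs were sorted, had 90.2, 76.6 and 101 CPM with sh20 and 59.6, 67.8 and 45.7 CPM with sh10, and at 0.63 ± 0.20 it was not called by either tool. Mecom, which encodes the factor EVI1, had 112 and 121 CPM in sh10 libraries A and C and 27.6 CPM in sh10 library B against 110 to 173 CPM with sh20, so that its difference of 0.77 ± 0.41 rested on 1 library. Meis1 had 359, 408 and 377 CPM with sh20 and 359, 274 and 359 CPM with sh10. None of these 4 was called by DESeq2. The summed genes of marrow stroma and endothelium, cells that the sort should leave out, were also higher with sh20, at 47.4 to 89.0 CPM against 33.0 to 37.4 CPM with sh10, and their part in the differences of HSC genes was not tested.

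DESeq2 called 32 genes higher and 29 lower in each of the 10 fits without 1 library, and some of the higher ones are given here, chosen after their values were seen. Cd38, an NAD glycohydrolase of the surface, had 32.2, 22 and 48.8 CPM with sh20, 8.39, 4.6 and 8.29 CPM with sh10 and 14.6 to 28.4 CPM with Renilla. Aldh1a1, a retinaldehyde dehydrogenase, had 71.5, 88.4 and 127 CPM with sh20 and 19.1, 20.6 and 23.4 CPM with sh10. Socs2, which restrains cytokine signalling, had 34.6, 45.9 and 70.2 CPM with sh20 and 16.6, 15.6 and 12.7 CPM with sh10. Their differences were 2.27 ± 0.39, 2.19 ± 0.37 and 1.74 ± 0.29, with the Renilla libraries of Socs2 between the groups, those of Cd38 above sh10 and overlapping with sh20, and 1 of 4 Renilla libraries of Aldh1a1, at 17.0 CPM, below the sh10 libraries. Trpc6, a calcium-permeable channel, had 83.7, 55.9 and 101 CPM with sh20 and 27.3, 15.6 and 30.2 CPM with sh10, and its Renilla libraries, at 63.6 to 91.9 CPM, lay with sh20 as for Myl10. Cavin2, a coat protein of caveolae, differed by 2.19 ± 0.43, Slfn2, of the Schlafen family, by 1.71 ± 0.33 and Gem, a small GTPase, by 1.53 ± 0.25. Adgre5, the adhesion receptor CD97, had 127 to 137 CPM with sh20, 62.5 to 83.3 CPM with sh10 and 75.2 to 90.2 CPM with Renilla, so that sh20 stood away from both. Ptk2, the focal adhesion kinase, differed by 2.55 ± 0.46, Ptn, the growth factor pleiotrophin, by 1.64 ± 0.31 and Fhl1, a LIM-domain protein, by 1.64 ± 0.34.

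Genes of lymphoid priming, expressed in the multipotent progenitors that lead to lymphocytes, lay lower with sh20. Of 22 tested, 6 had a positive difference, the median was -0.33, 0 were higher and 8 lower at an unadjusted p under 0.05, and DESeq2 called 0 higher and 2 lower, against 5.36% of all genes lower at that p and 0.868% called lower. Their sum was 2967, 2704 and 2741 CPM in the sh20 libraries, 3207, 3115 and 3544 CPM in the sh10 libraries and 3094 to 3503 CPM in the Renilla libraries, and here sh20 stood apart, with medians against Renilla of -0.25 for sh20 and 0.02 for sh10. Dntt, the terminal transferase of antigen-receptor rearrangement, had 77.8, 67.7 and 129 CPM with sh20, 168, 164 and 199 CPM with sh10 and 109 to 162 CPM with Renilla, a difference of -0.95 ± 0.24. Ccr9, a chemokine receptor for homing to the thymus, had 0.395, 0 and 0 CPM with sh20, 7.49, 4.6 and 4.42 CPM with sh10 and 0.221 to 1.39 CPM with Renilla, so that the Renilla libraries were near sh20. Ccr9 passed the filter on low counts only through the sh10 libraries, which fixed its direction in advance, and it is among the members counted above. Flt3, the cytokine receptor of multipotent progenitors, had 388, 258 and 292 CPM with sh20 and 409, 317 and 453 CPM with sh10. The groups of Flt3 overlapped in the full set, at -0.33 ± 0.16 (edgeR adjusted p = 0.57). Without sh10 library B and sh20 library A, Flt3 was called by edgeR (adjusted p = 0.0252) and the median of the list was -0.42, with 6 genes called lower by DESeq2, against 2.42% of all genes.

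**Figure D3:**
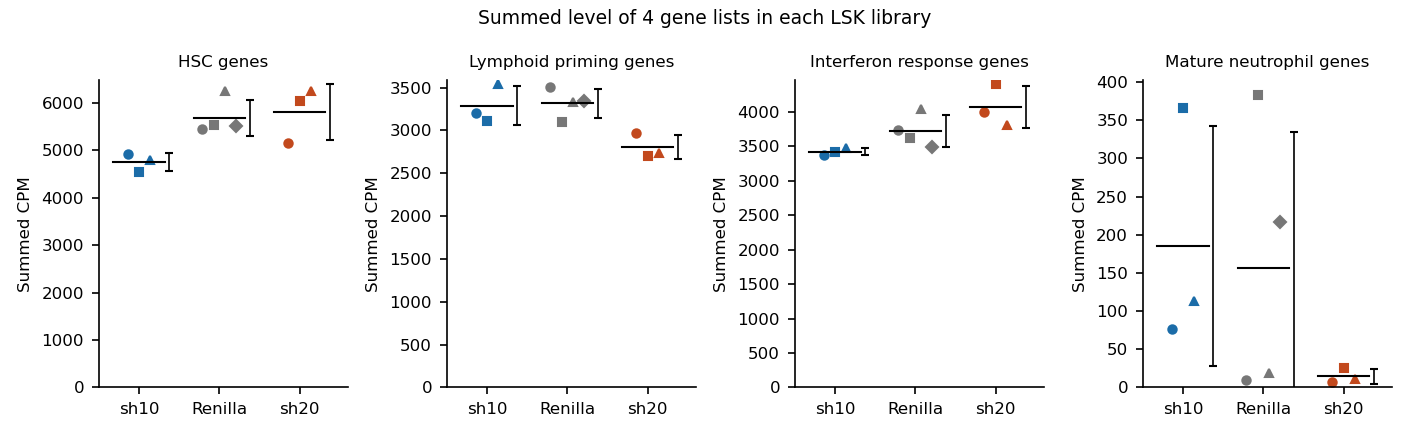
Summed CPM (y axes, from 0) of 4 gene lists in each LSK library by shRNA; circles are library A, squares B, triangles C and diamonds D, lines are means and bars SD. The sum of HSC genes is 4537 to 4922 CPM with sh10 and 5144 to 6242 CPM with sh20, that of lymphoid priming genes is lowest with sh20, and that of mature neutrophil genes is 7.1 to 25.2 CPM with sh20 and spread from 9.5 to 382.5 CPM among Renilla libraries.

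Markers of cells that the lineage gate should leave out also moved with the groups. All 12 genes of mature neutrophils that were tested, of 14 listed, were lower with sh20, with a median of -4.08, 9 of them at an unadjusted p under 0.05 and 4 called by DESeq2, against 5.36% and 0.868% of all genes. Their sum was 7.1, 25.2 and 11.3 CPM in the sh20 libraries and 76.9, 365.8 and 113.5 CPM in the sh10 libraries, while the Renilla libraries had 9.5, 382.5, 18.4 and 217.0 CPM, so that sh20 lay at the low end and sh10 within the range of the control. Members this scarce with sh20 passed the filter on low counts mainly through sh10 and Renilla libraries, so a lower value with sh20 was favoured in advance. The direction, the median and the calls of these 12 are therefore a description only. Ngp, a granule protein of neutrophils, had 1.78, 0 and 0.554 CPM with sh20 and 28.2, 105 and 25.1 CPM with sh10. Cd177, a surface glycoprotein of neutrophils, had at most 0.369 CPM with sh20 and 3.21, 9.21 and 4.42 CPM with sh10, and Ltf, lactoferrin, at most 0.863 CPM and 12.7, 70.8 and 32.4 CPM. Camp, the cathelicidin precursor, had 0.535 CPM in sh10 library A and 36.0 CPM in sh10 library B. Without sh10 library B and sh20 library A, 0 of the 12 were called by DESeq2 and the median was -3.03. No marker of this list was at 0 in all 10 libraries. The part of these cells in the other results was not tested.

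Of the other lineages, 11 of 16 T and NK cell genes were tested, with a median of 1.23 and a lowest value of -4.86. At an unadjusted p under 0.05, 1 was higher and 3 lower (3.81% and 5.36% of all genes), and DESeq2 called 0. Without sh10 library B and sh20 library A, DESeq2 called 2 higher and 1 lower (1.39% and 2.42% of all genes). The sums of this list were 94.0 to 195.8 CPM with sh20 and 75.5 to 122.1 CPM with sh10. Klrb1c, the NK1.1 antigen, had 5.92, 13.4 and 15.5 CPM with sh20 and 4.10, 3.40 and 2.21 CPM with sh10, whereas Bcl11b, a transcription factor of T cells, had at most 0.395 CPM with sh20 and 7.14, 0.200 and 6.27 CPM with sh10. Macrophage and dendritic cell genes, 15 tested of 16, had a median of 0.37 and overlapping sums, from 882 to 1473 CPM with sh20 and from 907 to 1396 CPM with sh10. Cd5l, a macrophage protein, was the 1 called by DESeq2, which called 0.604% of all genes higher and 0.868% lower. Cd5l had 44.6, 63.2 and 30.1 CPM with sh20 and 20.7, 23 and 10.1 CPM with sh10, and Siglech, of plasmacytoid dendritic cells, differed by -2.34 ± 0.76. For red cell genes (8 tested of 10), B cell genes (4 of 10), mast cell and basophil genes (12 of 12) and genes of marrow stroma and endothelium (6 of 11) DESeq2 called 0. All 8 red cell genes had a difference above 0, with a median of 0.55 and Hemgn at 0.43 ± 0.26, and their sums overlapped, from 140.2 to 282 CPM with sh20 and from 120.3 to 177 CPM with sh10. Of the B cell genes 2 lay above 0, the highest at 1.37, and 2 below, Ighd and Cd22, at -2.04 ± 0.81 and -1.71 ± 1.02, with a median of -0.78 and sums of 81.8 to 90.6 CPM with sh20 and 69.7 to 106 CPM with sh10. All 6 genes of marrow stroma and endothelium lay above 0, with a median of 0.78, and their sums were 47.4, 56.7 and 89.0 CPM with sh20, 33.0 to 37.4 CPM with sh10 and 34.8 to 43.1 CPM with Renilla, so that sh20 lay above the other groups. Gzmb, granzyme B, differed by 1.31 ± 0.77 and Tpsb2, a mast cell tryptase, by 3.55 ± 1.73 with 43.2, 0.216 and 96.4 CPM in the sh20 libraries. Stab2 and Kdr, of endothelium, reached 34.2 and 18.3 CPM in sh20 library C against 1.18 and 0 CPM in sh20 library A.

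Interferon-stimulated genes lay higher with sh20. Of 44 tested, 39 had a positive difference, with a median of 0.31, 9 were higher and 0 lower at an unadjusted p under 0.05, and DESeq2 called 3 higher, against 3.81% of all genes higher at that p and 0.604% called higher. The sum was 3998, 4411 and 3803 CPM with sh20, 3380, 3418 and 3471 CPM with sh10 and 3496 to 4040 CPM with Renilla, so that sh20 and sh10 did not overlap, every Renilla library lay above the sh10 libraries, and Renilla overlapped with sh20. Ifit1, which binds foreign RNA, had 25.7, 37.5 and 33.4 CPM with sh20 and 16.4, 10.0 and 15.8 CPM with sh10. Oas2, an oligoadenylate synthetase, had 34.9, 34.7 and 33.2 CPM with sh20, 15.3, 15.8 and 17.3 CPM with sh10 and 11.9 to 22.2 CPM with Renilla. Their differences were 1.19 ± 0.26 and 1.08 ± 0.25, and the third called gene, Isg20, an exonuclease, differed by 0.73 ± 0.21.

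Commitment genes of the erythroid, megakaryocytic and myeloid lineages gave 1 call by DESeq2. Erythroid and megakaryocyte genes had a positive difference in 28 of 31 and a median of 0.19, with 4 higher at an unadjusted p under 0.05 (3.81% of all genes) and 0 called by DESeq2 (0.604% higher). Their sums did not overlap, at 4205 to 4812 CPM with sh20 and 3647 to 3872 CPM with sh10, and without sh10 library B and sh20 library A the median was 0.28 and DESeq2 called 5 higher, against 1.39% of all genes. Gp9, a platelet glycoprotein, had 41.9 to 52.5 CPM with sh20 and 20.5 to 39.4 CPM with sh10, and Ppbp, the platelet basic protein, differed by 1.54 ± 0.54. Granulocyte and monocyte genes had a median of 0.00 over 27. Csf3r, the G-CSF receptor, was the 1 of these called by DESeq2, which called 0.868% of all genes lower. Csf3r had 181, 155 and 200 CPM with sh20, 256, 288 and 232 CPM with sh10 and 214 to 226 CPM with Renilla, a difference of -0.53 ± 0.12. Ctsc, a lysosomal protease that activates granule enzymes, differed by 0.35 ± 0.14.

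**Figure D4:**
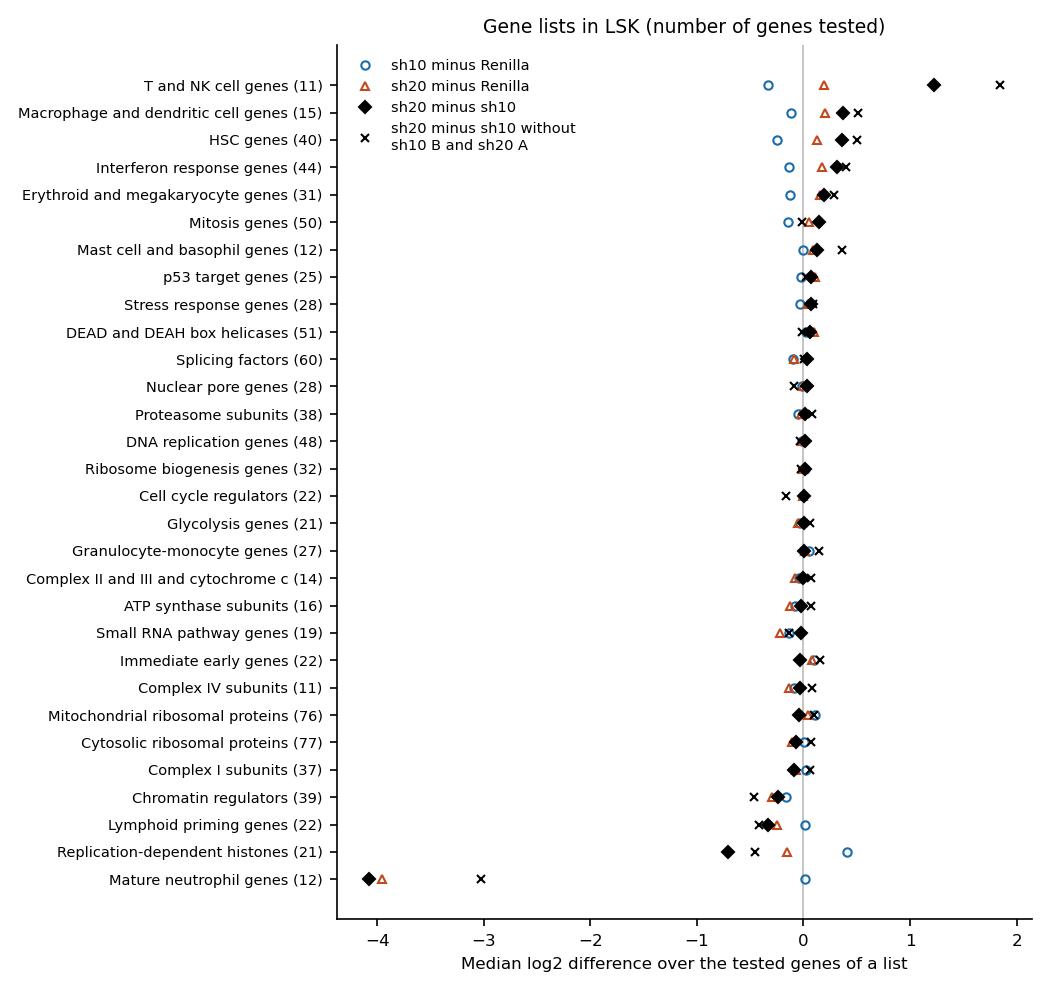
Median log2 difference (x axis) of each gene list with at least 10 genes tested, in LSK; black diamonds are sh20 minus sh10, crosses the same without sh10 library B and sh20 library A, open circles sh10 minus Renilla and open triangles sh20 minus Renilla. The median is -4.08 for mature neutrophil genes, -0.33 for lymphoid priming genes, 0.31 for interferon response genes and 0.36 for HSC genes, and that of mitosis genes moves from 0.15 to -0.01 without the pair of libraries.

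Among genes of division, 48 of DNA replication, 50 of mitosis and 22 regulators of the cycle, DESeq2 called 1, Cdk6, which is near the share over all genes (0.604% higher and 0.868% lower). Without sh10 library B and sh20 library A it called 1, 2 and 3 genes of these lists lower, against 2.42% of all genes. In that setting edgeR called 2 regulators lower, against 40 of all 14061 genes. Mitosis genes had a positive difference in 45 of 50 with a median of 0.15, but that median was -0.01 without sh10 library B and sh20 library A, whose sums of 6538 and 11407 CPM were the lowest and the highest of the 6. Kif20a and Nuf2, a kinesin and a kinetochore protein, differed by 0.38 ± 0.14 and 0.58 ± 0.25. DNA replication genes had a median of 0.02 over 48, with Uhrf1, which maintains DNA methylation, at -0.19 ± 0.08 and Timeless at -0.29 ± 0.13. Of the regulators of the cycle, Cdkn1a, the inhibitor p21, had 5.73, 7.12 and 9.60 CPM with sh20 and 11.2, 38 and 16.2 CPM with sh10 and was not called. Among p53 targets, Plk2, a stress-induced polo-like kinase, had 50.9, 7.98 and 18.3 CPM with sh20 and 1.61, 0.200 and 1.47 CPM with sh10, and Fas, the death receptor, 13.8, 11 and 10.2 CPM and 2.86, 3.80 and 2.76 CPM. These 2 were called higher by DESeq2, against 0.604% of all genes, while the list of 25 had a median of 0.07. Of 28 stress response genes, DESeq2 called Trib3, a pseudokinase, and Asns, asparagine synthetase, which were higher by 1.42 ± 0.35 and 0.78 ± 0.20, again against 0.604% of all genes; both are known targets of the amino acid response.

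Genes of respiration gave no call by DESeq2, which called 0.604% and 0.868% of all genes higher and lower. Medians were -0.09 for 37 subunits of complex I, -0.01 for 14 of complexes II and III with cytochrome c, -0.03 for 11 of complex IV, -0.02 for 16 of the ATP synthase and 0.05 for the 7 mitochondrially encoded genes that were tested. Without sh10 library B and sh20 library A the medians of the first 4 lists turned to 0.06, 0.07, 0.08 and 0.07, and that of the mitochondrially encoded genes was 0.05. Ndufa13 of complex I differed by -0.27 ± 0.20 and Ndufc1 by -0.26 ± 0.20. Uqcrh of complex III and Sdha of complex II differed by -0.14 ± 0.19 and 0.09 ± 0.08. Cox6a2, with under 10 CPM, differed by -2.33 ± 0.77, and Cox6b2 by -0.35 ± 0.22. The ATP synthase subunits Atp5k and Atp5mpl were at -0.33 ± 0.25 and -0.22 ± 0.21, and mt-Nd6 and mt-Co1 at 0.17 ± 0.18 and 0.08 ± 0.13. Glycolysis genes had a median of 0.01 over 21, with Pfkp, a phosphofructokinase, at 0.29 ± 0.10 and Hk2, a hexokinase, with 4.34, 28.5 and 17.0 CPM with sh20 and 39.8 to 41.5 CPM with sh10.

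In the remaining lists DESeq2 called 1 gene, Bptf, where 0.604% of all genes were called higher and 0.868% lower. Medians were 0.02 for proteasome subunits (Psmd10 0.33 ± 0.15, Psmd1 0.26 ± 0.14), -0.07 for cytosolic ribosomal proteins (Rpl22 -0.62 ± 0.18, Rps12 1.47 ± 0.70) and -0.04 for mitochondrial ribosomal proteins (Mrpl32 0.40 ± 0.21, Mrpl9 0.32 ± 0.18). Ribosome biogenesis genes had a median of 0.01 (Rrp12 -0.46 ± 0.18, Nop56 0.17 ± 0.10), splicing factors 0.04 (Srsf5 0.30 ± 0.09, Hnrnpl -0.32 ± 0.11), helicases 0.06 (Dhx9 -0.89 ± 0.29, Ddx20 0.49 ± 0.18) and nuclear pore genes 0.03 (Nup188 -0.56 ± 0.26, Nup210 -0.24 ± 0.11). Immediate early genes, which respond to the handling of cells, had a median of -0.03 (Fosl2 -1.76 ± 0.52, Klf6 0.47 ± 0.25), and replication-dependent histones, of which 21 of 69 were tested, one of -0.71 (Hist1h2ac 1.27 ± 0.39, Hist1h1b -1.17 ± 0.49). Genes of the small RNA pathway, through which both shRNAs act, had a median of -0.03 (Ago3 1.0 ± 0.43, Pan3 -0.71 ± 0.31). Chromatin regulators had a median of -0.24 over 39 with 10 positive. Without sh10 library B and sh20 library A the median was -0.46, and DESeq2 called 11 lower, against 2.42% of all genes. Bptf, the largest subunit of the NURF remodeller, had 37.9, 34.9 and 49.1 CPM with sh20, 85.3, 67.2 and 66.2 CPM with sh10 and 69.0 to 89.9 CPM with Renilla, and Arid1a of the BAF remodeller differed by -0.64 ± 0.18.

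Some further lower genes, chosen after their values were seen, are given here. Lyl1, a basic helix-loop-helix factor of progenitors, had 19.9, 20.7 and 22.7 CPM with sh20, 36.6, 60.0 and 47.7 CPM with sh10 and 34.3 to 61.2 CPM with Renilla. Bcr, the partner of Abl in leukaemia, had 18, 18.8 and 11.8 CPM with sh20 and 35.9, 34.6 and 45.7 CPM with sh10, and Bag6, a chaperone, 69.4 to 80.2 CPM and 111 to 164 CPM. Mapk11, which encodes a p38 kinase, had 0, 0 and 0.923 CPM with sh20, 6.42, 10.2 and 8.11 CPM with sh10 and 3.75 to 6.68 CPM with Renilla. For all 4, the sh20 libraries lay below every sh10 and every Renilla library.

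The seeds were read against the annotated 3' UTRs as a description. The sequence that pairs with the sh10 seed is ACTTTGT and that of sh20 is ATAGCAT, searched on the transcript strand only and with no overlap between the motifs. The first stood in 17.9% and the second in 8.90% of 21153 3' UTRs. Among tested genes, the median difference between the shRNAs was 0.03 for 2035 genes with sites of sh10 only, 0.04 for 699 with sites of sh20 only, 0.05 for 420 with both and -0.00 for 8821 with neither. Without sh10 library B and sh20 library A the medians were -0.04, -0.07, -0.12 and 0.02, so that genes with sites lay above the rest with all libraries and below them without those. Their UTRs were longer, with medians of 2315, 2476 and 3739 bases against 1035 bases. Of the 12 genes above, Gbp4 held 3 sites of sh10, Gbp9, Tnip3 and Paqr5 1 each, and Cdk6 1 site of sh20. A stretch of at least 15 contiguous bases of the sh20 target was found in Atxn7l3, a subunit of a deubiquitinase module, and in Meis1 among others. Atxn7l3 had 23.3, 30.2 and 21.6 CPM with sh20 and 49.4, 41.8 and 37.2 CPM with sh10, at -0.78 ± 0.21 (DESeq2 adjusted p = 0.0386), and it was called in 1 of the 10 DESeq2 fits without 1 library. Meis1 differed by 0.20 ± 0.11. A match in sequence says nothing of whether a transcript was bound.

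The same shRNAs were compared in CMPs, the common myeloid progenitors, with 2 sh20 and 3 sh10 libraries that share no library with LSK; the labels do not say whether CMP and LSK libraries share animals. There edgeR called 383 of 13824 genes higher with sh20 (2.77%) and 503 lower (3.64%). Leaving out CMP sh20 library C, so that the lone sh20 library was taken to vary like the other groups, gave 1561 and 1923, and leaving out CMP sh10 library B gave 26 and 58. Of 97 genes that DESeq2 called higher in LSK and that were tested in CMP, 87 had a positive difference in CMP (89.7%), 32 were called higher there and 1 lower. Of 122 called lower in LSK, 93 had a negative difference in CMP (76.2%), 25 were called lower and 1 higher. Over all 13185 genes tested in both, 49.7% were positive in CMP, and the differences correlated across genes at r = 0.228 (Spearman 0.207), a description without a test.

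Genes that differed in both cell types are named after their values were seen. Mycn had 326 and 264 CPM in CMP with sh20 and 99.2, 106 and 164 CPM with sh10, a difference of 1.26 (edgeR adjusted p = 0.0227). Cdk6 had 207 and 257 CPM with sh20 and 481, 345 and 466 CPM with sh10, at -0.89 (0.0223). Cd38 differed by 2.16, Trpc6 by 2.40, Syn3 by 2.93, Slfn2 by 2.14, Cavin2 by 1.87, Casp12 by 2.54 and Tgm2 by 1.89, all called higher by edgeR in CMP as they were by DESeq2 in LSK. Fam117a, Paqr5, Bag6 and Csf3r were called lower in both, with CMP differences of -0.64, -3.87, -0.83 and -1.67. Of the HSC list, 38 genes were tested in CMP, of which 7 were called higher and 1 lower, against 2.77% and 3.64% of all genes, with a median of 0.57. Markers of other cell types were also higher in that comparison, with 8 of 15 T and NK cell genes called higher (2.77% of all genes) and 0 lower at a median of 1.98, and 1 of 15 macrophage and dendritic cell genes called higher at a median of 1.17, and their part in the CMP differences was not tested. Slc29a3, at -0.10 (edgeR adjusted p = 0.726), was near 0 in CMP.

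**Figure D5:**
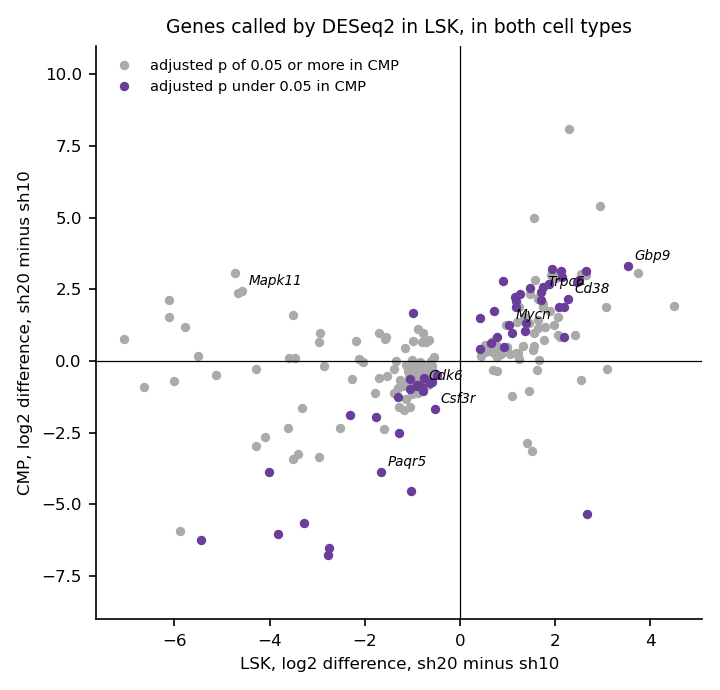
Log2 difference between sh20 and sh10 in CMP (y axis) against that in LSK (x axis) for the genes that DESeq2 called in LSK and that were tested in CMP; purple points have an edgeR adjusted p under 0.05 in CMP and grey points do not. Of the 97 genes on the right, 87 lie above 0 in CMP, and of the 122 on the left, 93 lie below 0, with Mapk11 among the exceptions.

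Where the difference between shRNAs itself differed between cell types was tested in 1 fit of all 19 libraries. Of 15066 genes, the sh20 minus sh10 difference was greater in LSK than in CMP for 31 (0.206%) and smaller for 8 (0.0531%) at an edgeR adjusted p under 0.05. These counts depended on single libraries: they were 607 and 199 without CMP sh20 library C, 44 and 15 without CMP sh20 library B, 20 and 5, 18 and 2 and 20 and 10 without CMP sh10 libraries A, B and C, and 18 and 5 without LSK sh10 library A. With the letter as a replicate block they were 11 and 1. Mapk11, lower with sh20 in LSK, had 11.3 and 4.36 CPM in CMP with sh20 and 1.38 to 1.45 CPM with sh10. Csf3r was lower in both, and more so in CMP, where it had 17.7 and 23 CPM with sh20 and 60.7 to 67.1 CPM with sh10.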

How the data were processed

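Sorted LSK cells and CMPs were sequenced as SMART-Seq v4 libraries. Per the submitters' processing notes, STAR aligned the reads to the mm10 build, Picard took out duplicates and HTSeq tallied reads on GENCODE genes. The authors deposited whole counts per gene, not normalized. The study's methods name the tool versions, a GENCODE release earlier than the one used here for annotation, and default parameters, under which HTSeq counts only reads on the strand of the gene. The kit does not mark strand, and 45.4% to 47.4% of uniquely placed reads fell on genes; a gene and its antisense partner cannot be told apart. Rows for reads on no gene were left out of library sizes. Of 54352 genes listed, 53663 matched GENCODE vM21 (GRCm38, which is mm10) by a gene name that occurs there once, and 13744 of the 13828 tested.

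The 10 LSK libraries were fitted as 3 groups with edgeR 4.0.16 (R 4.3.3; quasi-likelihood test, TMM, filterByExpr with a minimum count of 10 and minimum total of 15, Benjamini-Hochberg threshold 0.05), and the 9 CMP libraries alike. All 19 entered the test of the difference. DESeq2 1.42.0 used its own size factors and filter, and 17398 genes had an adjusted p. Library weights came from limma 3.58.1. CPM are scaled by TMM; a difference is sh20 minus sh10, ± SE. Genes detected were compared by exact permutation, also at a total of 3647318. Fits were tested on simulated data.

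Genes were named by rule. Since none passed the threshold, the 6 with the smallest p in each direction and a mean count of 50 or more over the 6 libraries were named. In each list, up to 2 members with the smallest p were named, and also Kit, Ly6a, Flt3, Cd34, Gata2, Rpn1 and Gm38708. Others are said to be chosen after their values were seen, and some genes that the rule names are not reported here. The comparison and the 36 lists were chosen with earlier results of these data known. Seed matches used 3' UTRs computed from the annotation.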

Additional observations from a re-analysis of the deposited data

Results flagged for a closer look

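The difference between the shRNAs differed between LSK and CMP for 31 genes in 1 direction and for 8 in the other, by edgeR's test of the difference itself (Benjamini-Hochberg adjusted p under 0.05). Prdm10, a zinc-finger transcription factor, overlapped between the groups in LSK, with 15.8 to 29.3 CPM with sh20 and 11.4 to 26.2 CPM with sh10, but had 1.18 and 0.349 CPM with sh20 and 30.4 to 32.7 CPM with sh10 in CMP, so that the differences were 5.58 log2 units apart. P2ry2, a purinergic receptor, the vitamin D receptor Vdr and the DNA sensor Aim2 also had under 2 CPM in the CMP sh20 libraries, and their differences lay 3.59, 4.56 and 3.90 apart. Csf3r was lower with sh20 in both cell types, and the gap of 1.19 came from the larger difference in CMP. Mapk11 went opposite ways, at -6.96, from under 1 CPM in the LSK sh20 libraries and under 2 CPM in the CMP sh10 libraries. Only 2 CMP libraries carry sh20, and the cause was not tested for any of these.

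Among the 4 LSK Renilla libraries, 1 library lay far from the others for 6 of 133 named genes, by a gap over the group's range above 0.829. That library, not the same one for each gene, had 22.4 CPM for Ifit1, 423 CPM for Rpn1, 104 CPM for Ltf, 13.6 CPM for Tcf15, 28.3 CPM for Gimap4 and 201 CPM for Tbxas1. Chance alone gives such a gap in about 1 in 20 groups.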

How the results depend on the processing

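Of 3007 values of the genes named, taken over 23 alternatives, 2749 kept direction and side of the threshold, 240 passed it in another setting and 18 reversed. The counts of genes moved more. In LSK, against 0 higher and 0 lower, DESeq2 gave 105 and 151, no filter on low counts 47 and 66, all 19 libraries in 1 fit 14 and 14, limma voom with library weights 18 and 4, and leaving out both sh10 library B and sh20 library A 19 and 40; leaving out 1 library gave 0 to 2 and 0 to 3. Genes at an unadjusted p under 0.05 numbered 1268, against 2394 with no filter, 727 with only the 6 libraries and 2135 without both libraries. DESeq2 without both gave 203 and 352, and without 1 library 59 to 132 and 64 to 255, lowest for higher genes without sh20 library C (59) or sh10 library A (64), and for lower genes without sh10 library C (64) or A (74). In CMP, DESeq2 gave 935 and 1043, no filter 740 higher, and only the 5 libraries 74 and 85; leaving out 1 library gave 26 to 1561 and 58 to 1923, with sh10 libraries A, B and C and Renilla library A lowering the count of higher genes (39, 26, 116 and 253), the sh10 libraries lowering that of lower genes (97, 58 and 147) and sh20 library C raising both. For the difference between cell types DESeq2 gave 175 and 128, and leaving out 1 library 18 to 607 and 2 to 199, highest without CMP sh20 library C and lowest without CMP sh10 library B. With the letter as a replicate block, LSK had 982 genes at an unadjusted p under 0.05 and 0 calls, CMP 7 and 21 calls, and the difference 11 and 1; letters are not shown to pair, since same-letter sh10 and sh20 LSK libraries correlated at -0.018, 0.050 and 0.008, and LSK with CMP libraries at 0.041, 0.051 and 0.237 (sh10) and -0.002 and 0.054 (sh20). For genes detected per LSK library, sh20 minus sh10, the gap was -2242 at equal depth, -651 at 5 counts, and -2911.67 to -2643.67 without 1 library. Differences near 0 reversed: without both libraries, Uqcrh was at 0.032 and 0.047 (DESeq2), Ndufa13 0.044 and 0.059, Atp5mpl 0.024 and 0.040, and Kit -0.072 and -0.057. With voom Kit was at -0.014 and Prdm10 at -0.0039, and Ly6a was at -0.017 with upper quartile normalization and -0.050 with depth as a covariate. Without 1 library Uqcrh ran from -0.26 to 0.012, Kit from -0.073 to 0.36, Ly6a from -0.14 to 0.26 and Prdm10 from -0.098 to 0.42. The cause was not tested.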

Other observations

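DESeq2 called 32 genes higher with sh20 in LSK that edgeR called higher in CMP, and 25 lower in both, and some of them are given here, chosen after their values were seen. Tcf15, a transcription factor linked to quiescent HSCs, had 30.6, 33.9 and 37.5 CPM with sh20, 18.7, 20.4 and 14.9 CPM with sh10 and 13.6 to 19.4 CPM with Renilla in LSK, so that sh20 stood above both. In CMP it had 40.9 and 23.5 CPM with sh20 and 3.93, 4.33 and 5.51 CPM with sh10. Clu, the secreted chaperone clusterin, had 30.6, 42.5 and 73.7 CPM with sh20 and 10.7, 15.2 and 7.74 CPM with sh10 in LSK, and Gimap4, a GTPase of lymphocytes, 13.6, 71.8 and 71.7 CPM and 10.7, 4.6 and 9.77 CPM. Their differences were 2.12 ± 0.52 and 2.64 ± 0.70 in LSK and 3.14 and 3.13 in CMP. Timp3, an inhibitor of metalloproteinases, differed by 2.47 ± 0.60 in LSK and 2.76 in CMP, and Hbegf, a ligand of the EGF receptor, by 1.75 ± 0.38 and 2.59. Ptgs1 and Tbxas1, the cyclooxygenase and thromboxane synthase of platelets, had small differences in LSK, 0.73 ± 0.19 and 0.43 ± 0.12, and 1.73 and 1.5 in CMP. Each of them was called in 2 of the 10 DESeq2 fits without 1 library, and the Ptgs1 groups overlapped in LSK. The other genes named here were called in 6 to 9 of those fits. Kat6b, a histone acetyltransferase, went the other way, with 10.1, 11.2 and 15.9 CPM with sh20, 37.1, 25.6 and 28.2 CPM with sh10 and 17.4 to 36.9 CPM with Renilla in LSK, and a CMP difference of -2.50. None of these passed the edgeR test in LSK.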
